A study of Mus musculus with 15 samples.

Results

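The 9 genes described here encode the amyloid precursor family (App, Aplp1, Aplp2), enzymes that cut the precursor (Adam10, Bace1, Psen2), the lipid carrier apolipoprotein E (Apoe), the microtubule-associated protein tau (Mapt) and a kinase that phosphorylates tau (Gsk3b). They were taken by their symbols in the platform annotation, and every probe of theirs that had values was used. This gave 36 probes of 9 genes, out of 34479 probes and 16401 named genes with values in the series. RNA of whole hippocampi of adult female mice was read on 15 single-colour (Cy3) arrays, in 3 groups of 5: SAMP8 that had exercised, sedentary SAMP8 and sedentary SAMR1. SAMP8 is an inbred senescence-accelerated line in which learning and memory decline early, and SAMR1 is the senescence-resistant line it is set against. Ages and the kind and duration of exercise are not in the labels, there was no exercised SAMR1 group, and the labels do not say whether each replicate was 1 animal, so p-values measure only the spread between these samples.

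The amyloid precursor protein is a membrane protein of neurons that can be cut along different routes. Alpha-secretase, chiefly ADAM10 in neurons, cuts within the amyloid-beta stretch. Beta-secretase (BACE1) followed by gamma-secretase, whose catalytic subunit is a presenilin, releases amyloid-beta. Tau binds and stabilises axonal microtubules, and its phosphorylation by kinases such as GSK3-beta lowers that binding. Apolipoprotein E, made mainly by astrocytes in the brain, carries lipids and binds amyloid-beta. The messenger RNA levels measured here say nothing of protein, cleavage or phosphorylation.

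Values are log2 of the deposited intensity, and differences are on the same scale, the first-named group minus the second, with the standard error (SE) or 95% interval of the fit. A probe was called changed at an adjusted p under 0.05 in limma with Benjamini-Hochberg adjustment over all 34479 probes. The median SE of a difference was 0.12, and the number of arrays limits the precision. Of 10 markers of hippocampal principal cells 9 were measured, and all of them, Neurod2, Wfs1 and Prox1 among them, lay above the median gene, between the 61.5th and the 97.4th percentile. Markers shared by neurons differed little, with list means of 13.88 ± 0.13 in exercised SAMP8, 13.87 ± 0.06 in sedentary SAMP8 and 13.89 ± 0.04 in SAMR1 (SD, n = 5 each). The principal-cell list averaged 11.76 ± 0.13, 11.60 ± 0.19 and 11.44 ± 0.15 in the same order, and 1 of its markers was called between the lines. Oligodendrocyte markers averaged 11.44 ± 0.22, 11.58 ± 0.24 and 11.75 ± 0.21, and 0 were called there. Choroid plexus markers varied between 7.03 and 10.09 over the arrays. Meningeal markers averaged 9.91, 10.49 and 9.57 in the same order of groups, and 5 of 12 were called higher in sedentary SAMP8 than in SAMR1. Pericyte and smooth muscle markers averaged 9.54, 9.63 and 8.99, and 5 of 9 were called between the lines, where 8 of 9 had the higher mean in sedentary SAMP8. SAMR1 replicate 5 stood apart, with a striatal marker mean of 8.97 against 7.13 to 7.41 on the other 14 arrays. In whole tissue, fewer cells of a type and less RNA per cell cannot be told apart.

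No probe of the 9 genes was called in any of the 3 comparisons. Between sedentary SAMP8 and sedentary SAMR1, 0 of 36 probes were called, where 2.26% of all probes were. Between exercised and sedentary SAMP8, 0 of 36 were called, and the share over all probes was 0%. The comparison of exercised SAMP8 with sedentary SAMR1, which shares its arrays with both others, gave 0 of 36 against 3.25% of all probes. At an unadjusted p under 0.05, limma gave 1 App probe in the line comparison, 1 Aplp2 and 1 Mapt probe in the exercise comparison and the same Mapt probe between exercised SAMP8 and SAMR1. The corresponding shares of all probes were 10.7%, 3.46% and 15.2%. Groups that did not overlap were found at 0, 1 and 0 of the 36 probes, beside 3.93%, 0.403% and 4.62% of all probes.

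The differences were small in both directions. In the line comparison 20 probes had a higher mean in sedentary SAMP8 and 16 a lower one, with a median of 0.04 and a range of -0.16 to 0.30, and the median over all probes was -0.003. In the exercise comparison 20 were higher and 16 lower in exercised SAMP8, with a median of 0.01 and a range of -0.24 to 0.29, beside 0.007 over all probes. In exercised SAMP8 relative to SAMR1 23 were higher and 13 lower, with a median of 0.07 and a range of -0.39 to 0.28, beside 0.009 over all probes. The outer ends of the 95% intervals were -0.50 and 0.75, -0.54 and 0.57, and -0.64 and 0.73 in the 3 comparisons.

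**Figure D1:**
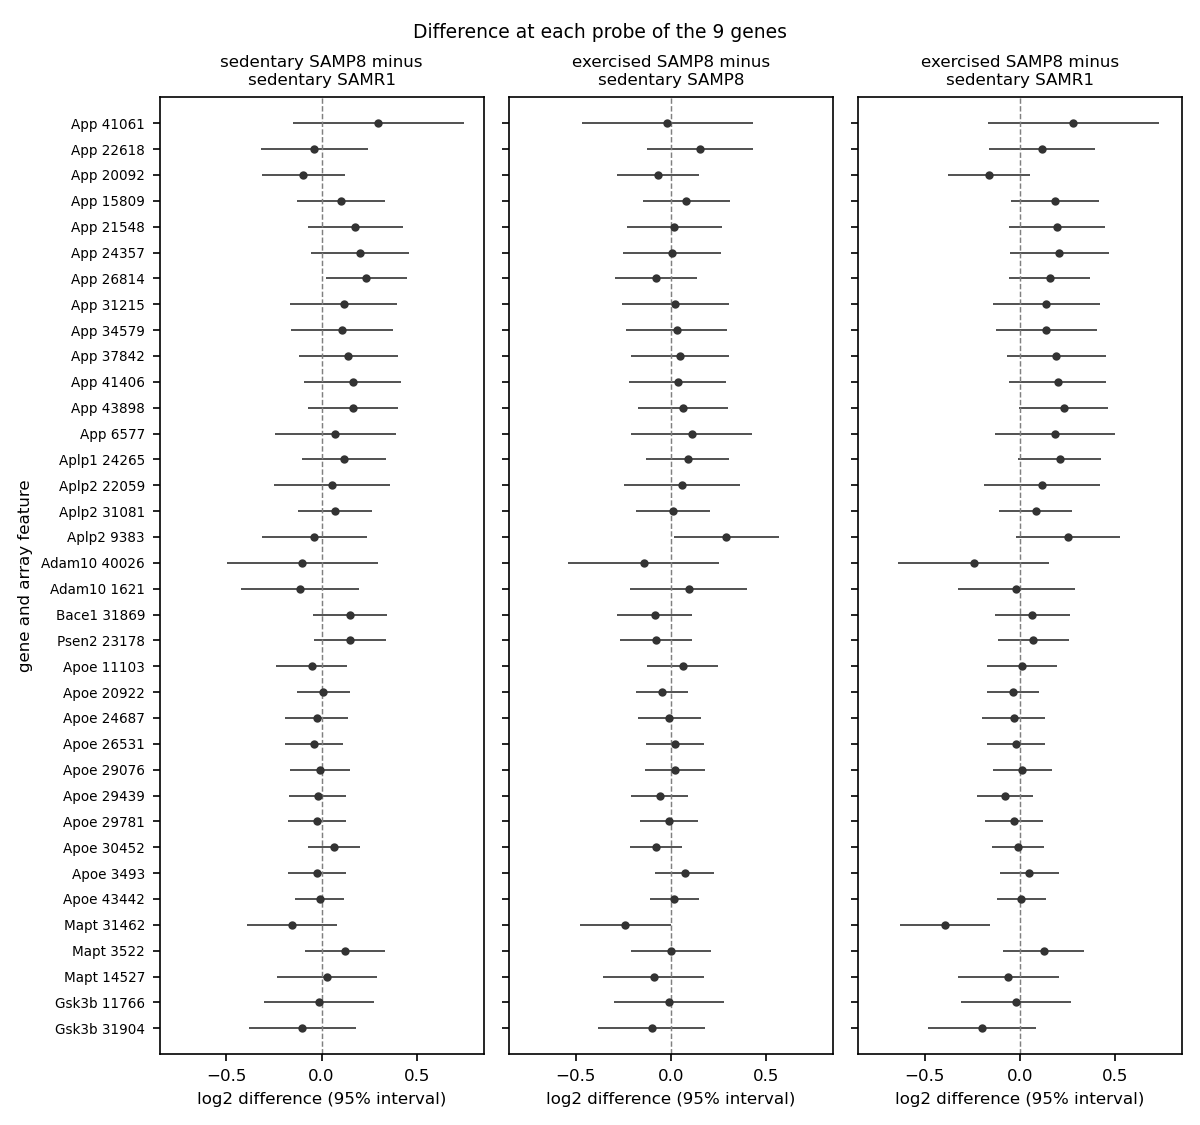
Difference in log2 intensity (x axis) at each of the 36 probes of the 9 genes (y axis, gene and array feature) in the 3 comparisons, with 95% intervals of the limma fit. The points lie between -0.39 and 0.30, and the lowest of them is Mapt feature 31462 between exercised SAMP8 and sedentary SAMR1.

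App, the amyloid precursor gene itself, was measured by 13 array features. Of these, 10 are annotated to the same RefSeq transcript, so they were taken as repeated readings of 1 transcript on an array and not as independent evidence. They moved together from array to array. After each feature's own mean was taken out, the features of an array had an SD of 0.09, against an SD of 0.18 between the array means. The median correlation between pairs of them was 0.77, given as a description over 15 arrays.

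The mean of the 10 App features was 13.54, 13.78, 13.73, 13.51 and 13.65 in exercised SAMP8, replicates 1 to 5. It was 13.67, 13.75, 13.67, 13.40 and 13.55 in sedentary SAMP8, and 13.20, 13.56, 13.55, 13.25 and 13.74 in sedentary SAMR1. The groups overlapped. SAMR1 replicates 1 and 4 were the lowest arrays, while SAMR1 replicate 5 was among the highest, so the SAMR1 group had the widest spread, with an SD of 0.23 beside 0.12 in exercised and 0.14 in sedentary SAMP8.

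Averages of the features that share a gene and sequence record were fitted apart, with adjustment over 20180 such averages and not over all probes. Averaged in this way to 1 value per array, App differed by 0.15 ± 0.11 (SE) between sedentary SAMP8 and SAMR1 (limma adjusted p = 0.72), with a 95% interval of 0.946-fold to 1.30-fold. The exercise difference was 0.03 ± 0.11 (adjusted p = 1), with an interval of 0.875-fold to 1.20-fold. Exercised SAMP8 differed from SAMR1 by 0.18 ± 0.11 (adjusted p = 0.468). Without SAMR1 replicate 5, the array with the high striatal markers, the line difference was 0.22 (adjusted p = 0.448) and that between exercised SAMP8 and SAMR1 0.25 (adjusted p = 0.245). Without SAMR1 replicate 1, the line difference was 0.08 (adjusted p = 0.939) and the other 0.12 (adjusted p = 0.736). Without SAMR1 replicate 4, the line difference was 0.09 (adjusted p = 0.907). Among the single features, 26814 had the lowest p in the line comparison, with a difference of 0.23 ± 0.10 (adjusted p = 0.391).

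A further App feature, 20092, annotated to another App sequence record, did not follow the 10. It read 14.04, 13.72, 14.00, 14.15 and 14.13 in exercised SAMP8. It read 14.04, 14.11, 14.01, 14.19 and 14.03 in sedentary SAMP8, and 14.29, 14.16, 13.96, 14.42 and 14.03 in SAMR1. Its highest readings fell on SAMR1 replicates 4 and 1, the arrays on which the 10 were lowest, and its lowest on exercised replicate 2, the array on which the 10 were highest. Its differences were -0.10 ± 0.10 between the lines (adjusted p = 0.844), -0.07 ± 0.10 for exercise (adjusted p = 1) and -0.16 ± 0.10 between exercised SAMP8 and SAMR1 (adjusted p = 0.505). The sign of the estimated App difference between the lines thus depended on the feature read, and neither estimate was called. The within-array log2 difference between feature 20092 and the mean of the 10 was 0.37 ± 0.27 in exercised SAMP8, 0.47 ± 0.19 in sedentary SAMP8 and 0.71 ± 0.40 in SAMR1 (SD, n = 5 each). Its exact two-sided permutation p was 0.262 between the lines, 0.532 for exercise and 0.183 between exercised SAMP8 and SAMR1, before adjustment.

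**Figure D2:**
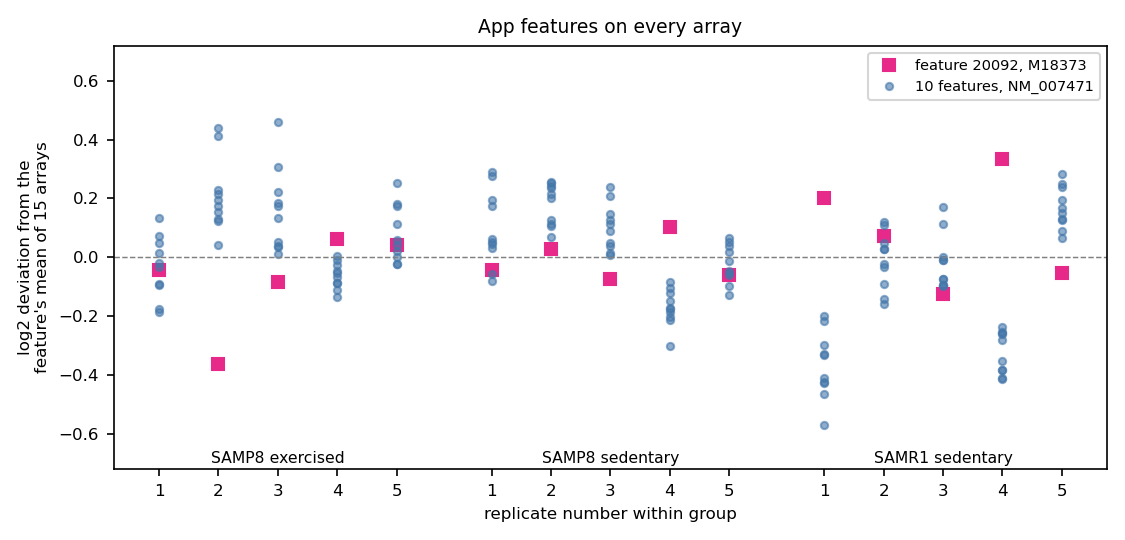
Deviation of 11 App features from their own mean over 15 arrays (y axis, log2), by group and replicate number (x axis). Round points are the 10 features of 1 transcript, all below their means on SAMR1 replicates 1 and 4 and on sedentary SAMP8 replicate 4, and the square is feature 20092, which was above its mean on those 3 arrays.

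The other 2 App features, annotated to complementary DNA clones, were dim. Feature 41061 averaged 7.57 ± 0.39 in exercised SAMP8, 7.59 ± 0.20 in sedentary SAMP8 and 7.29 ± 0.47 in SAMR1, and its line difference of 0.30 ± 0.21 (adjusted p = 0.718) was the widest of the 36. Feature 22618 averaged 6.26 ± 0.24, 6.11 ± 0.22 and 6.15 ± 0.18 in the same order (SD, n = 5 each). No deposited flag says whether these were above background.

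Aplp1 and Aplp2 encode the amyloid precursor-like proteins, which share App's overall layout but lack the amyloid-beta sequence. Aplp1, largely restricted to neurons, had 1 feature, which read 15.22, 15.67, 15.21, 15.42 and 15.47 in exercised SAMP8. It read 15.08, 15.24, 15.33, 15.39 and 15.50 in sedentary SAMP8, and 15.20, 15.07, 15.14, 15.20 and 15.35 in SAMR1. All 5 exercised arrays exceeded 4 of the 5 SAMR1 arrays, and the groups still overlapped. The difference between exercised SAMP8 and SAMR1 was 0.21 ± 0.10 (adjusted p = 0.36), the line difference 0.12 ± 0.10 (adjusted p = 0.791) and the exercise difference 0.09 ± 0.10 (adjusted p = 1).

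The 3 features of Aplp2, the more widely expressed of the pair, share 1 transcript annotation. The brightest, 31081, averaged 14.74 ± 0.17 in exercised SAMP8, 14.73 ± 0.12 in sedentary SAMP8 and 14.66 ± 0.07 in SAMR1. Feature 22059 averaged 11.42 ± 0.22, 11.36 ± 0.25 and 11.30 ± 0.25 in the same order (SD, n = 5 each). Neither differed by more than 0.12 in any comparison.

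The dimmest, 9383, read 9.49, 9.01, 9.37, 9.28 and 9.22 in exercised SAMP8. It read 8.89, 9.16, 9.31, 8.78 and 8.77 in sedentary SAMP8, and 8.74, 9.31, 9.10, 8.98 and 8.97 in SAMR1. Its exercise difference of 0.29 ± 0.13 (adjusted p = 1) was the widest positive one of the 36. Exercised replicates 2, 4 and 5 lay within the sedentary SAMP8 range of 8.77 to 9.31. The 3 features varied little alike over the arrays, with a median correlation of 0.16 between pairs, and their mean levels ran from 9.09 to 14.71. The mean of the 3 features differed by 0.12 ± 0.08 with exercise (adjusted p = 1).

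Among the secretases, Adam10 encodes the main neuronal alpha-secretase. Its brighter feature, 40026, read 11.50, 11.69, 12.56, 11.60 and 11.63 in exercised SAMP8. It read 11.80, 11.79, 11.79, 12.49 and 11.82 in sedentary SAMP8, and 12.19, 12.03, 12.04, 12.19 and 11.73 in SAMR1. In each SAMP8 group 1 array, exercised replicate 3 and sedentary replicate 4, stood well above the other 4. The line difference was -0.10 ± 0.19 (adjusted p = 0.928), the exercise difference -0.14 ± 0.19 (adjusted p = 1) and the difference between exercised SAMP8 and SAMR1 -0.24 ± 0.19 (adjusted p = 0.609). The other feature, 1621, was dim, with means of 5.995 ± 0.20, 5.90 ± 0.32 and 6.01 ± 0.18 in exercised SAMP8, sedentary SAMP8 and SAMR1 (SD, n = 5 each).

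Bace1, the beta-secretase, had 1 feature, which read 12.06, 11.94, 12.18, 11.92 and 11.72 in exercised SAMP8. It read 12.06, 11.97, 12, 12.21 and 12.01 in sedentary SAMP8, and 11.92, 12.08, 11.85, 11.79 and 11.85 in SAMR1. Sedentary SAMP8 had the highest mean, and its arrays overlapped those of SAMR1 because of SAMR1 replicate 2. The line difference was 0.15 ± 0.09 (adjusted p = 0.65, 95% interval -0.05 to 0.35) and the exercise difference -0.09 ± 0.09 (adjusted p = 1, interval -0.28 to 0.11).

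Psen2, a presenilin of the gamma-secretase complex, read 10.92, 10.80, 10.75, 10.73 and 10.92 in exercised SAMP8. It read 10.72, 10.93, 10.84, 11.10 and 10.95 in sedentary SAMP8, and 10.90, 10.70, 10.74, 10.86 and 10.58 in SAMR1. The 3 groups overlapped. Its line difference was 0.15 ± 0.09 (adjusted p = 0.63, 95% interval -0.04 to 0.34) and its exercise difference -0.08 ± 0.09 (adjusted p = 1, interval -0.27 to 0.11).

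Apoe was read by 10 features of 1 transcript, all of them among the brightest on the arrays. Of its 150 values, 77 lay within 0.01 of the highest value of the table, 65480 on the linear scale, where the largest number a 16-bit scanner can give is 65535. The lowest of the 150 was 15.57, and 105 of them were among the 100 brightest features of their array. The group means of the 10 features were 15.95 ± 0.05 in exercised SAMP8, 15.95 ± 0.05 in sedentary SAMP8 and 15.96 ± 0.02 in SAMR1 (SD, n = 5 each), and the averaged line difference was -0.01 ± 0.06 (adjusted p = 0.978). Saturation flags were not used here. The readings nearest the highest value had little room to rise, while the remaining 73 lay further below it, so how far these values bound a difference in Apoe is not known. Feature 30452 was the 1 probe whose exercised and sedentary SAMP8 readings did not overlap, at 15.87 to 15.98 in exercised SAMP8 and at least 15.99 in sedentary SAMP8. All 5 of those sedentary readings lay within 0.01 of the highest value of the table, and the exercise difference was -0.08.

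Of the 36 probes, Mapt feature 31462, 1 of 3 that read tau, had the widest difference between exercised SAMP8 and SAMR1. It read 13.28, 13.19, 13.33, 13.24 and 13.39 in exercised SAMP8. The readings were 13.41, 13.77, 13.28, 13.68 and 13.49 in sedentary SAMP8, and 13.97, 13.69, 13.37, 13.70 and 13.69 in SAMR1. Exercised SAMP8 had the lowest mean. Its arrays overlapped SAMR1 only through SAMR1 replicate 3, and sedentary SAMP8 only through sedentary SAMP8 replicate 3.

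At that feature, exercised SAMP8 minus SAMR1 was -0.39 ± 0.11 (adjusted p = 0.0689), with a 95% interval of -0.63 to -0.16. The exercise difference was -0.24 ± 0.11 (adjusted p = 1) and the line difference -0.16 ± 0.11 (adjusted p = 0.72). The comparison of exercised SAMP8 with SAMR1 became a call without SAMR1 replicate 3 (-0.47, adjusted p = 0.0263). Over all alternatives its adjusted p ran between 0.0263 and 0.561, and the difference between -0.47 and -0.26.

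The other Mapt features showed no difference of that size. Feature 3522, annotated to the same transcript, read 14.66, 14.91, 14.97, 14.62 and 14.75 in exercised SAMP8. It read 14.82, 14.74, 14.72, 15.07 and 14.57 in sedentary SAMP8, and 14.54, 14.77, 14.70, 14.63 and 14.66 in SAMR1. Exercised SAMP8 minus SAMR1 was 0.12 ± 0.10 here (adjusted p = 0.629), opposite in sign to feature 31462. Feature 14527, annotated to another Mapt transcript, averaged 12.91 ± 0.24 in exercised SAMP8, 13.00 ± 0.17 in sedentary SAMP8 and 12.97 ± 0.19 in SAMR1 (SD, n = 5 each). Its differences were -0.06 between exercised SAMP8 and SAMR1 and -0.09 for exercise, the signs of feature 31462. Between the lines it was 0.03, the opposite sign. All 3 Mapt features had a lower mean in exercised than in sedentary SAMP8, feature 3522 at only -0.0006. The mean of the 2 features that share a transcript differed by -0.14 ± 0.08 between exercised SAMP8 and SAMR1 (adjusted p = 0.49).

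The log2 difference between features 31462 and 3522 within an array was -1.50 ± 0.17 in exercised SAMP8, -1.26 ± 0.22 in sedentary SAMP8 and -0.98 ± 0.27 in SAMR1 (SD, n = 5 each). All 5 exercised values lay below all 5 SAMR1 values. The exact two-sided permutation p for exercised SAMP8 against SAMR1 was 0.00794, the smallest that 5 against 5 allows, and 0.0476 after adjustment over the 6 such tests run for Mapt and App. Between the lines the permutation p was 0.0952, and for exercise 0.159, before adjustment. These feature pairs were picked after their values were seen, and the adjustment does not cover that choice. The probe sequences and their positions on the transcript were not used here.

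**Figure D3:**
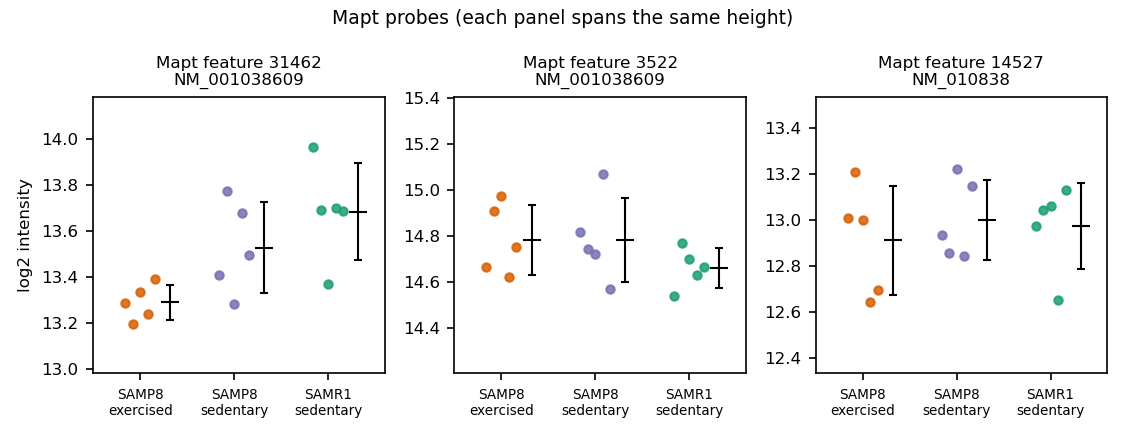
Log2 intensity (y axis) of the 3 Mapt features on each array, by group (x axis), with the group mean and SD beside the points. Feature 31462 was lowest in exercised SAMP8 (13.29 ± 0.08) and highest in SAMR1 (13.68 ± 0.21), and the other features show no such order.

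Gsk3b, a kinase that phosphorylates tau, was read by 2 features of 1 transcript. Feature 31904 read 8.97, 9.11, 9.48, 9.31 and 8.99 in exercised SAMP8. It read 9.45, 9.35, 8.84, 9.19 and 9.54 in sedentary SAMP8, and 9.50, 9.53, 9.27, 9.19 and 9.38 in SAMR1. The groups overlapped, and exercised SAMP8 minus SAMR1 was -0.20 ± 0.13 (adjusted p = 0.534). Feature 11766 averaged 7.77 ± 0.18, 7.78 ± 0.34 and 7.79 ± 0.05 in exercised SAMP8, sedentary SAMP8 and SAMR1 (SD, n = 5 each).

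**Figure D4:**
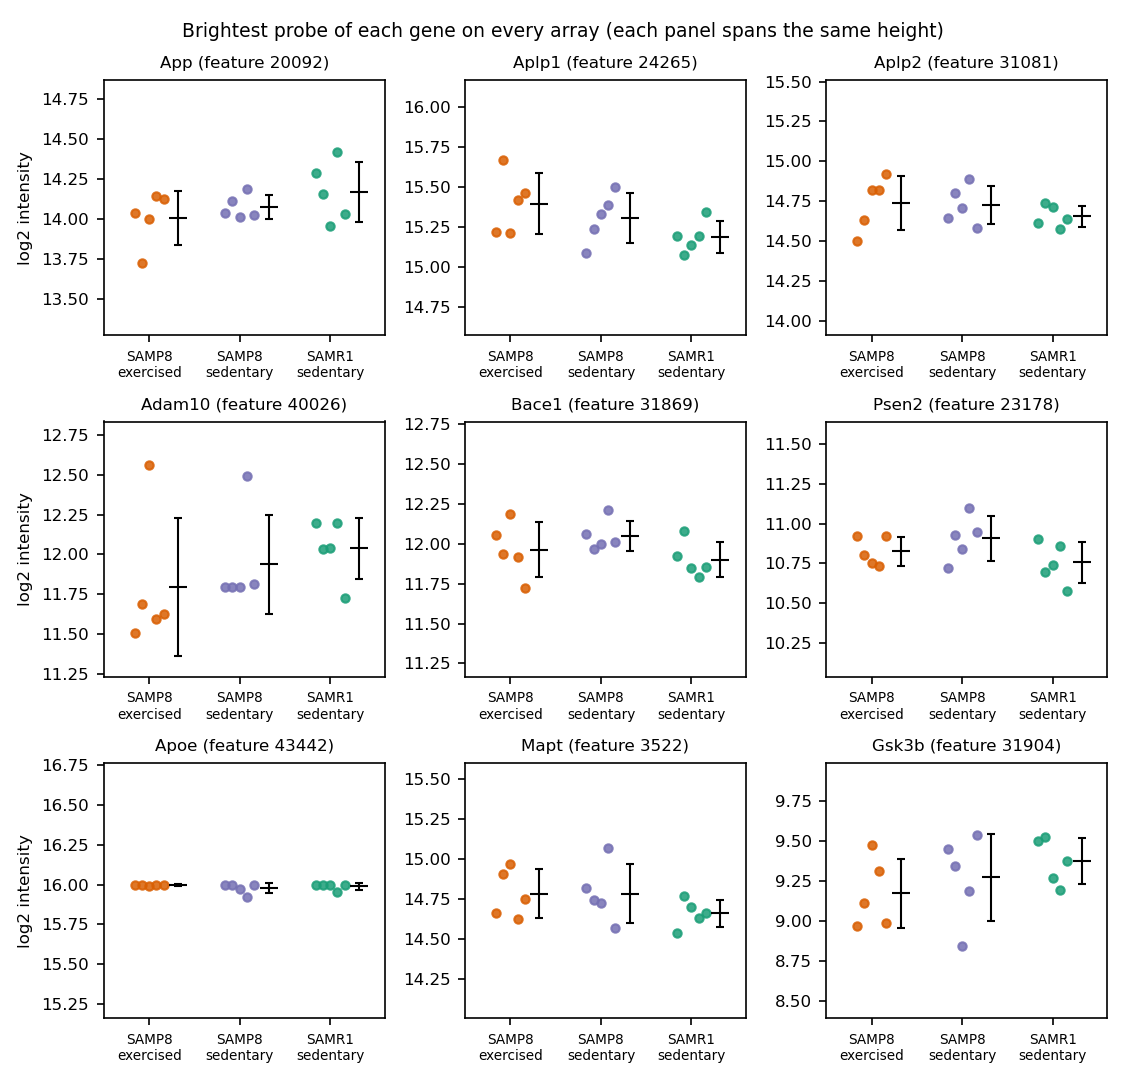
Log2 intensity (y axis) of the brightest feature of each of the 9 genes on every array, by group (x axis), with the group mean and SD beside the points; every panel spans the same height. The groups overlap in all 9 panels, Adam10 has 1 high array in each SAMP8 group, and Apoe sits near the top of the measuring range.

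Around the 9 genes, 10 lists of pathway genes were read in the same fit, each gene by its brightest probe. They held 126 measured genes, counting each once and the 9 genes among them. In the line comparison 0 of 126 were called, against 2.52% of all named genes. With exercise 0 of 126 were called, against 0% of named genes. For exercised SAMP8 against SAMR1 2 were called, which is 1.59% of the lists against 3.37% of named genes, and both were lower in exercised SAMP8, as were 1.72% of named genes. At an unadjusted p under 0.05, limma gave 10.9%, 3.32% and 15.5% of named genes in the 3 comparisons. The median difference over the 126 genes was 0.01, -0.01 and 0.03, beside 0.00, 0.01 and 0.02 over all named genes.

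Map1a, which encodes a microtubule-associated protein of mature neurons, was 1 of the 2. Its brightest feature, 29043, read 10.73, 10.61, 10.73, 10.63 and 9.23 in exercised SAMP8. It read 11.05, 11.27, 10.95, 10.76 and 10.91 in sedentary SAMP8, and 11.45, 11.49, 11.38, 11.27 and 11.59 in SAMR1. All exercised arrays lay below all sedentary SAMP8 arrays, narrowly (10.73 against 10.76). All sedentary SAMP8 arrays also lay below all SAMR1 arrays, more narrowly still (11.268 against 11.272). Groups did not overlap at 0.403% of all probes with exercise and at 3.93% between the lines. Exercised replicate 5 was far below the rest.

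Map1a fell by 1.05 ± 0.22 in exercised SAMP8 relative to SAMR1 (adjusted p = 0.0139). Without exercised replicate 5 the difference was -0.76 (adjusted p = 0.000347). The call was lost with the mean of the gene's probes (-0.53, adjusted p = 0.0672), with only the 2 groups compared (adjusted p = 0.0565), with a replicate block on those groups (adjusted p = 0.111) and with marker covariates (adjusted p = 0.0731). The exercise difference was -0.60 ± 0.22 (adjusted p = 1). The line difference was -0.45 ± 0.22 (adjusted p = 0.512), and it was called without exercised replicate 5 and, with the same-numbered sedentary arrays paired as a replicate block, at an adjusted p of 0.0338. Its other 3 features were not called between exercised SAMP8 and SAMR1, with differences of -0.56, -0.40 and -0.10.

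Rtn4, which encodes the neurite growth inhibitor Nogo, a reticulon that can bind BACE1, was the other. Feature 24656 read 11.82, 11.88, 12.15, 11.81 and 11.99 in exercised SAMP8. It read 12.08, 12.41, 12.24, 12.03 and 12.20 in sedentary SAMP8, and 12.48, 12.26, 12.11, 12.48 and 12.48 in SAMR1. The exercised and SAMR1 arrays overlapped at 1 array each. Rtn4 fell by 0.43 ± 0.10 in exercised SAMP8 relative to SAMR1 (adjusted p = 0.0258), and the call was lost without SAMR1 replicate 1, 4 or 5 or exercised replicate 1, 2 or 4, with adjusted p up to 0.0771. It was also lost with the mean of the gene's probes, the mean of features of 1 transcript, the replicate block, only the 2 groups compared, array weights or marker covariates (adjusted p between 0.0525 and 0.389). Of its other 3 features none was called. One of about the same brightness differed by -0.34 (adjusted p = 0.0892), a dimmer one of the same transcript by 0.10 (adjusted p = 0.911) and the dimmest by -0.16 (adjusted p = 0.651).

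The remaining lists had no called gene in any comparison. The other genes of the alpha- and beta-secretase list (12 measured) included Adam17, a further alpha-secretase candidate, at -0.29 ± 0.12 between exercised SAMP8 and SAMR1 (adjusted p = 0.232), and Bace2, a homologue of Bace1, at 0.29 ± 0.15 between the lines (adjusted p = 0.548). All 6 measured gamma-secretase subunits had a slightly lower mean in exercised than in sedentary SAMP8, by at most 0.08. Nicastrin (Ncstn), the substrate receptor of that complex, differed by 0.12 ± 0.13 between the lines (adjusted p = 0.852).

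Among the 9 measured genes listed under amyloid-beta degradation, directly or through another enzyme, Plat, tissue plasminogen activator, came closest to a call. Its line difference was 0.56 ± 0.15 (adjusted p = 0.0574), and it was called in 10 of the alternatives. Between exercised SAMP8 and SAMR1 it was 0.48 ± 0.15 (adjusted p = 0.0893), called in 3 of them. Ece2, an endothelin-converting enzyme, differed by -0.67 ± 0.27 between exercised SAMP8 and SAMR1 (adjusted p = 0.223), and was called there without exercised replicate 3. Ide, insulin-degrading enzyme, differed by 0.19 ± 0.11 between the lines (adjusted p = 0.629). Of the 16 measured lipid carriers and receptors, Apod, apolipoprotein D, differed by 0.53 ± 0.18 between the lines (adjusted p = 0.208). It was called with the same-numbered sedentary arrays paired as a replicate block (adjusted p = 0.047) and without sedentary SAMP8 replicate 5 (0.67, adjusted p = 0.0452).

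Among 21 measured tau kinases and activators, Camk2a, a subunit of calcium/calmodulin-dependent kinase II, had the widest difference. It was 1.20 ± 0.42 between exercised SAMP8 and SAMR1 (adjusted p = 0.162), and was called without exercised replicate 3 (1.58, adjusted p = 0.0241). Mark4, a microtubule affinity-regulating kinase, differed by 0.26 ± 0.09 between exercised and sedentary SAMP8 (adjusted p = 1). Of the 18 tau phosphatase genes, Ppp3ca, a catalytic subunit of calcineurin, differed by 0.16 ± 0.07 between the lines (adjusted p = 0.412). Between exercised SAMP8 and SAMR1 it differed by 0.18 ± 0.07 (adjusted p = 0.206), which was called with the floor at the 20th percentile (adjusted p = 0.0258). Of the 12 genes of tau turnover and sugar modification, Ogt, the transferase that adds O-linked N-acetylglucosamine, differed by 0.28 ± 0.10 between the lines (adjusted p = 0.245).

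**Figure D5:**
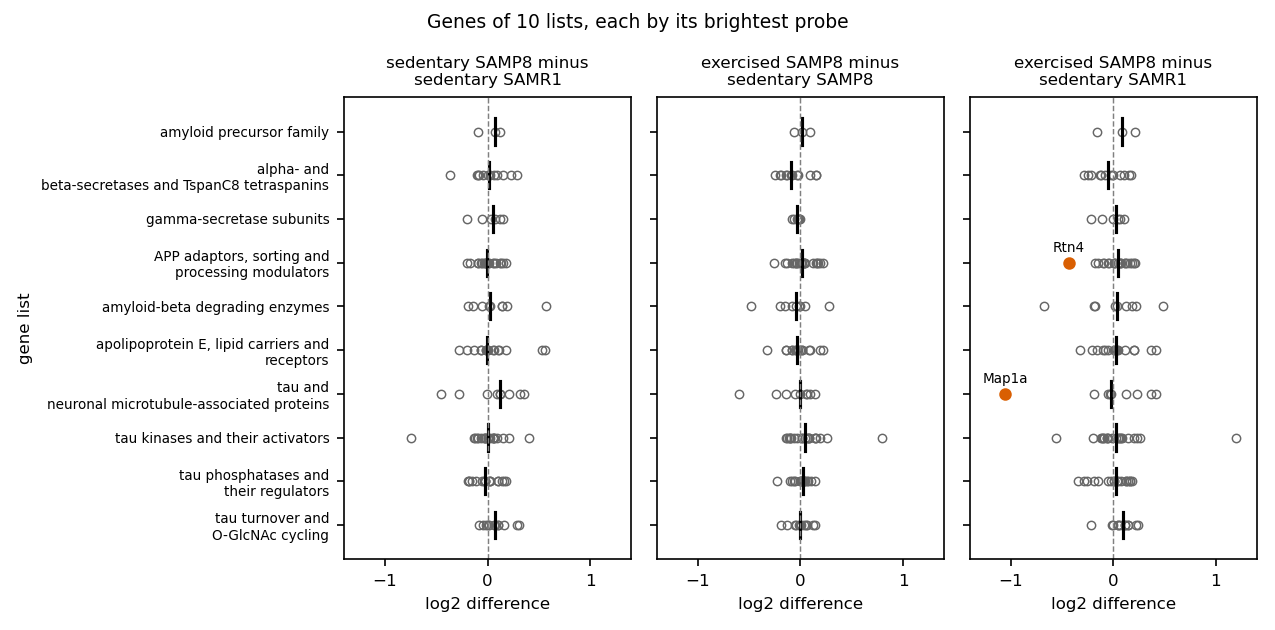
Difference in log2 intensity (x axis) of every measured gene of the 10 lists (y axis) in the 3 comparisons, each gene by its brightest probe. Open points were not called, filled points were called (Map1a and Rtn4, between exercised SAMP8 and sedentary SAMR1), and the black bar is the list's median.

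The measured genes next to the 9 genes on the chromosomes were also read, 5 on each side and 90 in all. Between the lines 2 of 90 were called (2.22%, against 2.52% of named genes). These were Hcst, a signalling adaptor of immune cells that neighbours Aplp1, at -0.54 ± 0.12 (adjusted p = 0.0169), and Aldh1a2, a retinoic acid-synthesising enzyme that neighbours Adam10 and is also on the meningeal marker list, at 1.57 ± 0.39 (adjusted p = 0.0471). With exercise 0 of 90 were called, against 0% of named genes. For exercised SAMP8 against SAMR1 1 of 90 was called (1.11%, against 3.37% of named genes), Myo1e, an unconventional myosin near Adam10, at -0.95 ± 0.25 (adjusted p = 0.0446).

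After the group means were taken out, the named genes whose brightest probe varied most like App feature 20092 over the 15 arrays were Stam (r = 0.97), Pi4kb (r = 0.95) and Esf1 (r = 0.91). For Mapt feature 3522 they were Oxsr1 (r = 0.89), Usp54 (r = 0.88) and Igf2r (r = 0.87). These are the highest among all named genes, on shared arrays, and are given as a description.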

How the data were processed

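The deposited table held linear intensity values of the 15 arrays, 1 column each, between 4.02 and 65480. Tools named per the submitters' processing notes come to limma alone. Sorted, the columns held almost the same values, which is what quantile normalisation produces, so that step is read from the values. No source used here names the scanner, background step or filter. Total RNA was labelled as Cy3 cRNA, per the labels' protocols. Of 45220 rows, 34479 had values on every array. Array medians lay between 207.75 and 208.67.

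Intensities under the 5th percentile (39.17) were raised to it before log2. Two-sided tests of each probe used lmFit and eBayes of limma 3.58.1 (R 4.3.3), fitted once to 15 arrays with a term per group and adjusted by Benjamini-Hochberg. The script was tested on simulated data. Gene names came from the platform annotation. Neighbouring genes came from RefSeq's GRCm38.p6 gene table.

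Same-numbered sedentary SAMP8 and SAMR1 arrays deviated together from their group means, at r over 0.1, in 5 of 5 pairs (r = 0.18, 0.16, 0.39, 0.44 and 0.40). Differently numbered pairs of these groups ran from r = -0.34 to 0.20, and 4 of 5 sedentary SAMP8 arrays matched their own number best. Exercised SAMP8 and SAMR1 arrays of the same number exceeded r = 0.1 in 3 of 5 pairs. The main fit did not pair same-numbered arrays, and only the replicate block among the alternatives took these numbers as pairs. The members and lists were chosen with earlier results of these data known. The text names every probe of the 9 genes, called list genes and others with the lowest p in their list, called neighbours, and the 3 genes most like App and Mapt. The same was computed for Apoe and not used, because its readings were near the top of the range. Alternatives varied the floor, dim-probe filter, centring, probe summary, replicate block, samples, variance model, array weights and marker covariates, and left out each array. Averaging features of 1 transcript, and comparing 2 features within an array, were added after the data were seen.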

Additional observations from a re-analysis of the deposited data

Results flagged for a closer look

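Dixon's test at the 95% level, applied to each of the 108 groups of 5 values (36 probes in 3 groups), picked out 19 groups with 1 array far from the others. Chance gives about 1 in 20 groups. Of the 19, 11 were Apoe features near the top of the measuring range, with gaps to the nearest array of 0.004 to 0.43. These were, in exercised SAMP8, the lowest readings of feature 3493 (replicate 3, 15.99), 11103 (replicate 1, 15.89), 24687 (replicate 1, 15.72), 29076 (replicate 1, 15.80) and 43442 (replicate 3, 15.99). In sedentary SAMP8 they were those of feature 11103 (replicate 4, 15.57), 20922 (replicate 2, 15.97), 24687 (replicate 4, 15.76) and 30452 (replicate 3, 15.99), and in SAMR1 those of feature 29781 (replicate 4, 15.83) and 43442 (replicate 4, 15.95).

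Adam10 feature 40026 had a high array in exercised SAMP8 (replicate 3, 12.56, nearest other array 11.69) and in sedentary SAMP8 (replicate 4, 12.49, nearest 11.82). Dim Adam10 feature 1621 had a low array in SAMR1 (replicate 2, 5.70). Among App features, 21548 and 24357 were high on exercised SAMP8 replicate 2 (14.34 and 14.36), and 26814 was low on exercised replicate 4 (13.86). Dim App feature 22618 was high on sedentary SAMP8 replicate 3 (6.51) and low on SAMR1 replicate 4 (5.84).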

How the results depend on the processing

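No probe of the 9 genes was called in the line or the exercise comparison under any alternative run. Between exercised SAMP8 and SAMR1 the count of called member probes went from 0 to 1, Mapt feature 31462, without the dimmest 40% of probes (adjusted p = 0.046), with a variance trend and robust prior (adjusted p = 0.0442) and, in the range of 0 to 1 with 1 array left out, without SAMR1 replicate 3. Each member probe was counted once per comparison and alternative. Fits with 1 array left out aside, 14 differences moved by 1 SD or more, 1139 did not and 2 became calls. With 1 array left out, 1619 stayed within 1 SD and 1 became a call. The 14 moved mostly with the marker means of choroid plexus and meninges as covariates. Under these, Gsk3b feature 31904 became 0.38 between the lines, -0.33 for exercise and 0.05 between exercised SAMP8 and SAMR1. The cause was not tested.

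Over all probes 780 were called between the lines. The count was 431 with the brightest probe per gene, 414 with the mean of probes per gene and 491 with the mean of features of 1 transcript (fewer tests), 243 with the marker covariates, and 606 to 852 with 1 array left out. Between exercised SAMP8 and SAMR1 1120 were called, and 590, 602, 710, 464 and 788 to 1179 under the same settings. For exercise 0 were called, with 1 only without exercised replicate 3.

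Of list genes, 0 were called between the lines. This became 1 (Plat) without dim probes, with the brightest probe, mean of probes, transcript mean, variance trend or array weights, 2 (Plat and Map1a) with only the 2 groups compared, and 0 to 2 with 1 array left out. Between exercised SAMP8 and SAMR1 2 were called (Map1a and Rtn4), 3 with the floor at the 20th percentile (Ppp3ca added), 1 with the mean of probes (Plat) or array weights (Map1a), 0 with only the 2 groups compared or with covariates, and 1 to 4 with 1 array left out (4 without exercised replicate 3). None was called for exercise in these settings.

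With the replicate number as a block over all arrays, 1 list gene was called between exercised SAMP8 and SAMR1, and 0 with the block and only those 2 groups, where 545 probes were called. With the block and only the 2 sedentary groups, 2 list genes were called between the lines (Apod and Map1a). The block changed no call of the 9 genes. Exercised and sedentary SAMP8 arrays of the same number deviated together, at r over 0.1, in only 1 of 5 pairs. Limits were 5 arrays a group, readings near the scanner's ceiling (Apoe) or near the floor (Adam10 feature 1621, App feature 22618), and features without known positions on their transcripts.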
